A study of Mus musculus with 61 samples.

Results

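The quadriceps of wild-type mice 1 day after acute exercise was compared with the quadriceps of sedentary wild-type mice. The group comprises every library that the labels give as quadriceps of C57BL/6J mice either after acute exercise with 1 day of recovery (3 mice, numbered 16, 17 and 19) or sedentary (3 mice, numbered 5, 6 and 7), which is 6 of the 61 libraries in the series. All these mice carried no engineered allele and, per the labels, received no agent. Each library is a different animal, and each holds RNA of whole frozen muscle, so that fibres and all other cells of the muscle contribute to every value. The labels used here give no age or sex for these mice and no detail of the exercise.

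The study asked how regulatory T cells shape the response of muscle to exercise. For comparison with the quadriceps at day 1, the same series holds wild-type quadriceps at 2 and 7 days of recovery (3 mice each) and tibialis anterior of the same numbered mice at day 1 and at rest. It also holds quadriceps of Foxp3DTR- mice at day 1 and at rest (3 mice each). These mice lack the diphtheria toxin receptor and received the toxin at both times.

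A contracting fibre transmits force through its Z-discs, where the actin filaments of neighbouring sarcomeres are cross-linked and where the giant elastic protein titin is anchored. Proteins bound to titin and to the Z-disc, among them ankyrin-repeat and LIM-domain proteins, respond to stretch and load. Small heat shock proteins bind unfolding cytoskeletal proteins, titin and filamin among them, and hold them until larger chaperones refold them or autophagy removes them. A bout of exercise also engages immediate early transcription factors, fuel metabolism, the circadian clock and, where fibres are injured, immune and satellite cells.

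The 3 day 1 libraries held 7188880 to 8863788 counts and the 3 sedentary libraries 6898566 to 7707321. Counts were found for 18705 to 19404 genes at day 1 and for 17373 to 19054 genes at rest, and mitochondrially encoded genes took 4.27 to 4.71% and 4.75 to 5.03% of the counts. The 8 fibre markers, led by Ckm and Acta1, summed to 174600 to 183720 CPM at day 1 and to 179140 to 182330 CPM at rest. CPM are counts scaled to the total of each library. They are not corrected for gene length, so they compare libraries and not genes.

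Of 13062 genes tested, 57 rose at day 1 (0.436% of genes tested) and 19 fell (0.145%), at an adjusted p under 0.05 in the quasi-likelihood test of edgeR with Benjamini-Hochberg adjustment. The median log2 fold change of all genes was -0.01, and 49.2% of genes were higher at day 1. The rises were larger than the falls. Fold changes of the risen genes ran from 0.36 to 5.35 on the log2 scale with a median of 1.09, and 31 of them were above 1. Those of the fallen genes ran from -5.54 to -0.23 with a median of -0.72, and 5 of them were below -1. Both extremes, 5.35 and -5.54, belong to transcripts with provisional names. The fall of -5.54 lost its call whichever of the 6 libraries was left out. The next largest changes were 4.93 for Slc6a19 and -1.29 for H60b. In all 76 genes the 3 day 1 mice lay outside the range of the 3 sedentary mice, while among all genes tested 880 lay wholly above and 1008 wholly below. In whole muscle, a lower or higher level of a gene from a minor cell type cannot be told apart from fewer or more cells of that type.

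**Figure D1:**
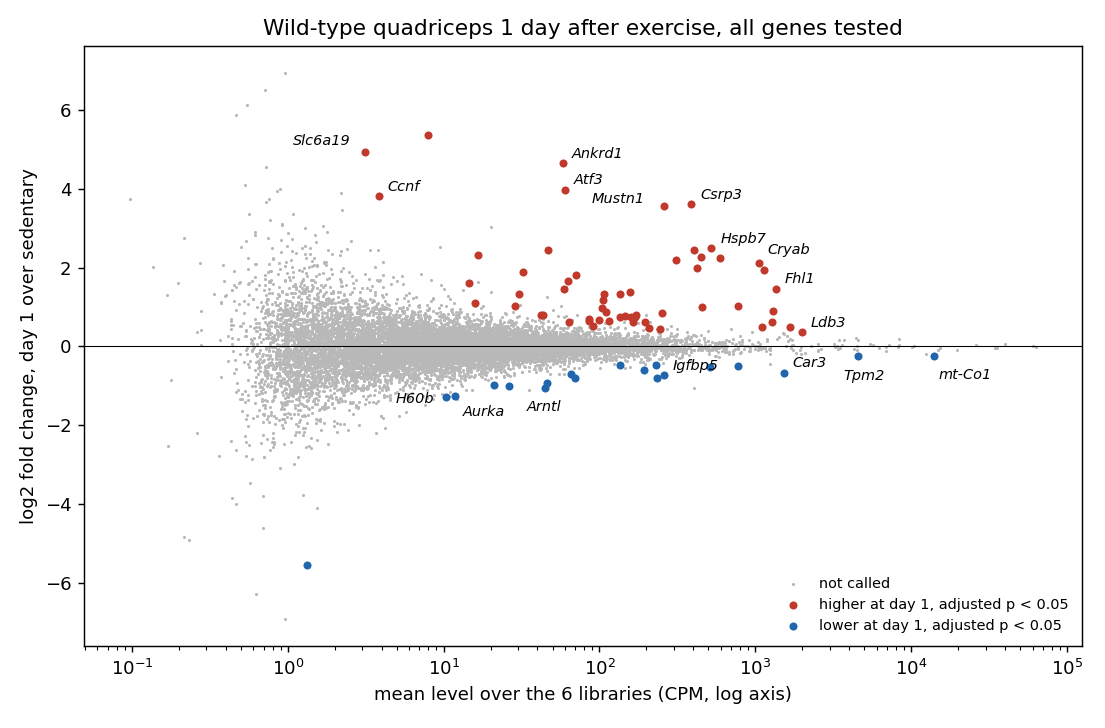
Each point is 1 of the 13062 genes tested in wild-type quadriceps, with its mean level over the 6 libraries (CPM, log axis) across and its log2 fold change, day 1 over sedentary, up the page. Red points are the 57 genes that rose and blue points the 19 that fell. The red points reach a log2 fold of 5.35, and most blue points lie close to the band of genes that were not called.

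The day 1 mice differed among themselves in the size of the rise. Mouse 16 had the highest level of the 3 in 50 of the 57 risen genes, mouse 17 in 4 and mouse 19 in 3. The median coefficient of variation of the risen genes was 20.3% among day 1 mice and 11.8% among sedentary mice, whereas for the fallen genes it was 9.42% and 9.16%. Without mouse 16, 37 genes rose (36 of them among the 57) and 11 fell (6 of them among the 19). Without sedentary mouse 5 the counts were 33 and 8, without sedentary mouse 6 they were 41 and 11, and without sedentary mouse 7 they were 37 and 8. All 76 genes kept their direction in each of these fits, and 28 risen and 3 fallen genes stayed called whichever 1 of the 6 libraries was left out.

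Genes on a list for titin, the Z-disc and strain sensing were 12 of the 57 that rose. The list includes Mustn1 and Lmcd1, described below by nuclear roles, and leaves out the risen gene Pdlim3. Of 25 listed genes tested, 12 rose and 1 fell, where 0.436% of all genes tested rose. Of the 25, 22 were higher at day 1, and their median log2 fold change was 0.44 against -0.01 for all genes. This list and those below were chosen with earlier results of these data known, so their counts are a description and not an independent test. Over all genes tested, 49.2% were higher, 0.436% rose and 0.145% fell. Ankrd1 (chr19:36111961-36120099, minus strand, GRCm38) encodes an ankyrin-repeat protein that binds titin at the N2A region and also acts in the nucleus. It stood at 168, 90.6 and 77.5 CPM in day 1 mice 16, 17 and 19, against 3.78, 5.65 and 4.15 CPM in sedentary mice 5, 6 and 7. Every day 1 mouse was more than 10 times above every sedentary mouse (log2 fold change 4.64 ± 0.36 SE, adjusted p = 9.31e-07). Its relative Ankrd2 was at 622, 459 and 433 CPM against 101, 139 and 97.2 CPM (2.19 ± 0.17, adjusted p = 9.31e-07). The third member of this family, Ankrd23, went the other way, with 639, 615 and 643 CPM at day 1 against 907, 964 and 862 CPM at rest (-0.51 ± 0.06, adjusted p = 0.000374). The groups were apart in all 3 genes, upward in Ankrd1 and Ankrd2 and downward in Ankrd23, and each call held whichever library was left out.

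Csrp3 (chr7:48830398-48848033, minus strand) encodes the muscle LIM protein, which links the Z-disc to stretch signalling. Its level was 788, 642 and 708 CPM at day 1 against 42.5, 77.1 and 59.3 CPM at rest (3.60 ± 0.26, adjusted p = 4.91e-07). Mustn1, a small nuclear protein of regenerating and growing muscle and bone, was at 599, 385 and 446 CPM against 37.1, 37.0 and 48.9 CPM (3.55 ± 0.29, adjusted p = 1.97e-06). In both genes the lowest day 1 mouse was far above the highest sedentary mouse. Fhl1, a LIM-only protein of the sarcomere, was the most even of the large rises, with 1954, 1958 and 2004 CPM against 611, 839 and 732 CPM (1.46 ± 0.14, adjusted p = 7.58e-06). Lmcd1, a LIM protein that acts as a transcriptional cofactor, had 1024, 584 and 627 CPM against 147, 186 and 139 CPM (2.26 ± 0.19, adjusted p = 2.24e-06). The groups were again apart, with mouse 16 above the other 2 day 1 mice in Lmcd1 and not in Fhl1.

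Actin-binding proteins that gather at sites of sarcomere damage rose with them. Xirp1, whose Xin repeats bind and stabilise actin filaments, was at 1578, 673 and 675 CPM at day 1 against 163, 243 and 219 CPM at rest (2.24 ± 0.27, adjusted p = 0.00018). Flnc, the muscle filamin that cross-links actin at the Z-disc and is a known client of small heat shock proteins, was at 2395, 1480 and 1538 CPM against 424, 543 and 474 CPM (1.93 ± 0.16, adjusted p = 2.24e-06). Mouse 16 was the highest in both, and the lowest day 1 mouse was well above the sedentary range. Smaller rises were measured for Nrap (0.49 ± 0.09), Xirp2 (0.48 ± 0.09), Synpo2l (0.47 ± 0.10) and the Z-disc scaffold Ldb3 (0.36 ± 0.06), at adjusted p from 0.00773 to 0.03. Each of these 4 calls was lost in at least 1 fit that left out a mouse, which also lowers the power of the test. Their log2 fold changes stayed between 0.31 and 0.58 in those fits. Ldb3 lost its call without sedentary mouse 7 (adjusted p = 0.0537), Nrap without mouse 16, 5 or 7 (0.0944 to 0.122), Xirp2 without mouse 16, 19, 5 or 6 (0.0655 to 0.15) and Synpo2l without any mouse but 17 (0.0732 to 0.224). Titin itself was level, at 33395, 32057 and 35531 CPM against 34227, 32859 and 37550 CPM (-0.03 ± 0.06, adjusted p = 0.959). Desmin (0.22) and Tcap (0.18) were higher without passing the test.

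The small heat shock proteins were higher as a family. All 7 were higher at day 1 and 5 rose, where 49.2% of all genes were higher and 0.436% rose. Their median log2 fold change was 0.91. Cryab (chr9:50751325-50756636, plus strand), which encodes alpha-B crystallin, had the smallest p of all genes tested. It was at 2048, 1343 and 1727 CPM at day 1 against 381, 425 and 389 CPM at rest (2.12 ± 0.14, adjusted p = 2.1e-07). Hspb7, which keeps filamin C soluble, was at 1029, 810 and 811 CPM against 131, 209 and 139 CPM (2.49 ± 0.21, adjusted p = 2.33e-06). Hspb1 (chr5:135887919-135889563, plus strand), the stress-inducible partner of Cryab on actin filaments, was at 1037, 441 and 566 CPM against 126, 130 and 123 CPM (2.45 ± 0.24, adjusted p = 9.56e-06). The sedentary mice were nearly equal in Hspb1 and Cryab, and mouse 16 stood above the other day 1 mice in Hspb1. Hspb8, which works with the co-chaperone Bag3 in the removal of damaged filamin, had a log2 fold change of 0.91 ± 0.12 (adjusted p = 0.000787), and Hspb6 one of 0.61 ± 0.07 (adjusted p = 0.000133). Hspb3 was at 31.3 ± 5.23 CPM against 20.7 ± 0.839 CPM (SD, n = 3 each; adjusted p = 0.247), and Hspb2 at 98.9 ± 18.7 CPM against 71.7 ± 5.11 CPM (adjusted p = 0.124). Hspb2 overlaps Cryab on the other strand, and whether counting used strand is not given in the sources used here, so part of its reads may be those of Cryab.

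Among the larger chaperones, fewer genes passed. Of 35 tested, 30 were higher, with a median of 0.25, and 2 rose, beside 49.2% higher and 0.436% risen over all genes. Dnajb1, the HSP40 co-chaperone that is a classical heat shock target, was at 142, 33.1 and 61.5 CPM at day 1 against 11.8, 20.1 and 12.2 CPM at rest (2.44 ± 0.41, adjusted p = 0.00633). Hspe1, the lid of the mitochondrial chaperonin, was at 64.5, 44.7 and 49.8 CPM against 31.5, 30 and 30.6 CPM (0.80 ± 0.16, adjusted p = 0.0265). Mouse 16 was highest in both. The call of Dnajb1 was lost without sedentary mouse 5 or 7 (adjusted p = 0.0609 and 0.0639), and that of Hspe1 without any mouse but 17 (0.0601 to 0.217). The inducible HSP70 gene Hspa1a had 75.7, 8.36 and 23.9 CPM against 6.16, 4.06 and 2.98 CPM (3.04 ± 0.71) and missed the threshold (adjusted p = 0.0733). Its near-identical copy Hspa1b was at 8.69, 1.16 and 2.50 CPM against 0.14, 0.290 and 0.649 CPM (3.45 ± 1.05, adjusted p = 0.23), and how reads matching both were counted is not given. Both copies were above the sedentary range in all 3 day 1 mice, with mouse 16 many times above mouse 17. Bag3 was at 210 ± 52.2 CPM against 140 ± 8.27 CPM (SD, n = 3 each; 0.60, adjusted p = 0.0859).

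The heat shock element, the DNA motif bound by heat shock factors, was searched for as GAANNTTC on both strands in RefSeq promoters (GRCm38.p6), in a window from 250 bases before to 50 bases after each start. A promoter was matched for 46 of the 57 risen genes, 14 of the 19 fallen genes and 9840 of the genes tested. The motif was present in 10 of the 46 risen (21.7%), 3 of the 14 fallen (21.4%) and 6.90% of the tested genes. Risen genes that held it were Ankrd1, Csrp3, Fhl1, Hspb1, Hspb6, Hspb8, Hspe1, Mustn1, Myl12a and Sbno2. Fallen genes that held it were Asb14, Igfbp5 and Iqsec1, so the letters alone did not separate the directions. The 250 bases before the start are shown for 3 risen genes, 2 chaperones and the strain sensor Ankrd1, with the motif in capitals (Hspb1 at chr5:135887669-135887918, plus strand, Hspe1 at chr1:55087898-55088147, plus strand, and Ankrd1 at chr19:36119845-36120094, minus strand).
Hspb1: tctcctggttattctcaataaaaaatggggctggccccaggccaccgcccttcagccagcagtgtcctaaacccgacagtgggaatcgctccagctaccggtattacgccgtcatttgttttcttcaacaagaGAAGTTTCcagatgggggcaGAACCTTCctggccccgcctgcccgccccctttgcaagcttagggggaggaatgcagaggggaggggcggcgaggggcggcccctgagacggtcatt
Hspe1: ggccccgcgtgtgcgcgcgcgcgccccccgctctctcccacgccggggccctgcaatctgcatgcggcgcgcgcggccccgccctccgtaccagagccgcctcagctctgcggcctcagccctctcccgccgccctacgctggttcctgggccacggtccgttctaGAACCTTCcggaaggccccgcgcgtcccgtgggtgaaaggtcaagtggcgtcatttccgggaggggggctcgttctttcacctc
Ankrd1: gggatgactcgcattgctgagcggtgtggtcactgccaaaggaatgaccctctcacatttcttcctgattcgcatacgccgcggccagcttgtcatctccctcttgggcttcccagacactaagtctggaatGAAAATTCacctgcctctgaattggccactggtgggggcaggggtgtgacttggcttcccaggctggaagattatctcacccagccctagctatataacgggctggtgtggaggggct
The motif begins 117 and 97 bases before the start in Hspb1, 84 bases before it in Hspe1 and 118 bases before it in Ankrd1.

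Other motifs were searched in the same windows. The TEAD motif CATTCC was in 12 of 46 risen promoters (26.1%), 4 of 14 fallen promoters (28.6%) and 14.6% of tested ones. The AP-1 motif TGANTCA was in 6 risen (13.0%), 0 fallen and 6.23% of tested promoters, and the CArG box of serum response factor in 4 risen (8.70%), 0 fallen and 1.58% of tested ones. The clock E-box CACGTG was in 2 risen (4.35%), 1 fallen (7.14%) and 11.9% of tested promoters, and the cAMP element TGACGTCA in 2 risen (4.35%), 0 fallen and 3.57% of tested ones. These are counts of letters, and no binding was measured.

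Of 20 immediate early transcription factors tested, 18 were higher (49.2% of all genes were), the median was 0.72 and 1 rose (0.436% of all genes did). That gene was Atf3 (chr1:191170296-191218039, minus strand), a stress-induced repressor of the ATF family. It was at 210, 62.3 and 66.4 CPM at day 1 against 5.88, 7.39 and 8.43 CPM at rest (3.97 ± 0.45, adjusted p = 8.74e-05). All 3 day 1 mice were at least 7 times above the highest sedentary mouse. Fos, the AP-1 subunit induced within minutes of contraction, was at 47.8, 9.40 and 17.8 CPM against 11.5, 9.28 and 3.50 CPM (1.64, adjusted p = 0.186), with the groups overlapping. Atf4 and its targets belong to the integrated stress response. Of 19 such genes tested, 11 were higher, the median was 0.17 and 0 were called. The members with the smallest p were the serine synthesis gene Psat1, at 4.90 ± 0.843 CPM against 1.36 ± 0.612 CPM (1.85, adjusted p = 0.163), and Atf4 itself, at 145 ± 15.8 CPM against 117 ± 8.11 CPM (0.33, adjusted p = 0.371; SD, n = 3 each).

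Of the genes with large rises outside these groups, some were expressed at a low level. Slc6a19 (chr13:73679745-73704865, minus strand), a sodium-coupled transporter of neutral amino acids best known from gut and kidney, was at 8.80, 2.67 and 6.68 CPM at day 1 against 0, 0.580 and 0 CPM at rest, where only mouse 6 had counts (4.93 ± 0.93, adjusted p = 0.0158). Ccnf, the F-box protein cyclin F, was at 11.6, 3.95 and 5.98 CPM against 0, 0.580 and 0.908 CPM (3.81 ± 0.70, adjusted p = 0.0111). Rrad, a Ras-like GTPase that restrains calcium channels, was at 45.4, 21.0 and 16.1 CPM against 5.32, 7.97 and 3.50 CPM (2.32 ± 0.44, adjusted p = 0.0168). The groups were apart in all 3 genes, but these calls were less firm than those of the strain sensors. Slc6a19 lost its call without mouse 16, 5 or 7 (adjusted p = 0.089 to 0.107), Rrad without the same mice (0.103 to 0.147) and Ccnf without mouse 16 or 6 (0.109 and 0.0652). Ccnf also stands in the cell cycle list. Of 21 cell cycle genes tested, 10 were higher, the median was -0.13, and 1 rose while 1, Aurka, fell.

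**Figure D2:**
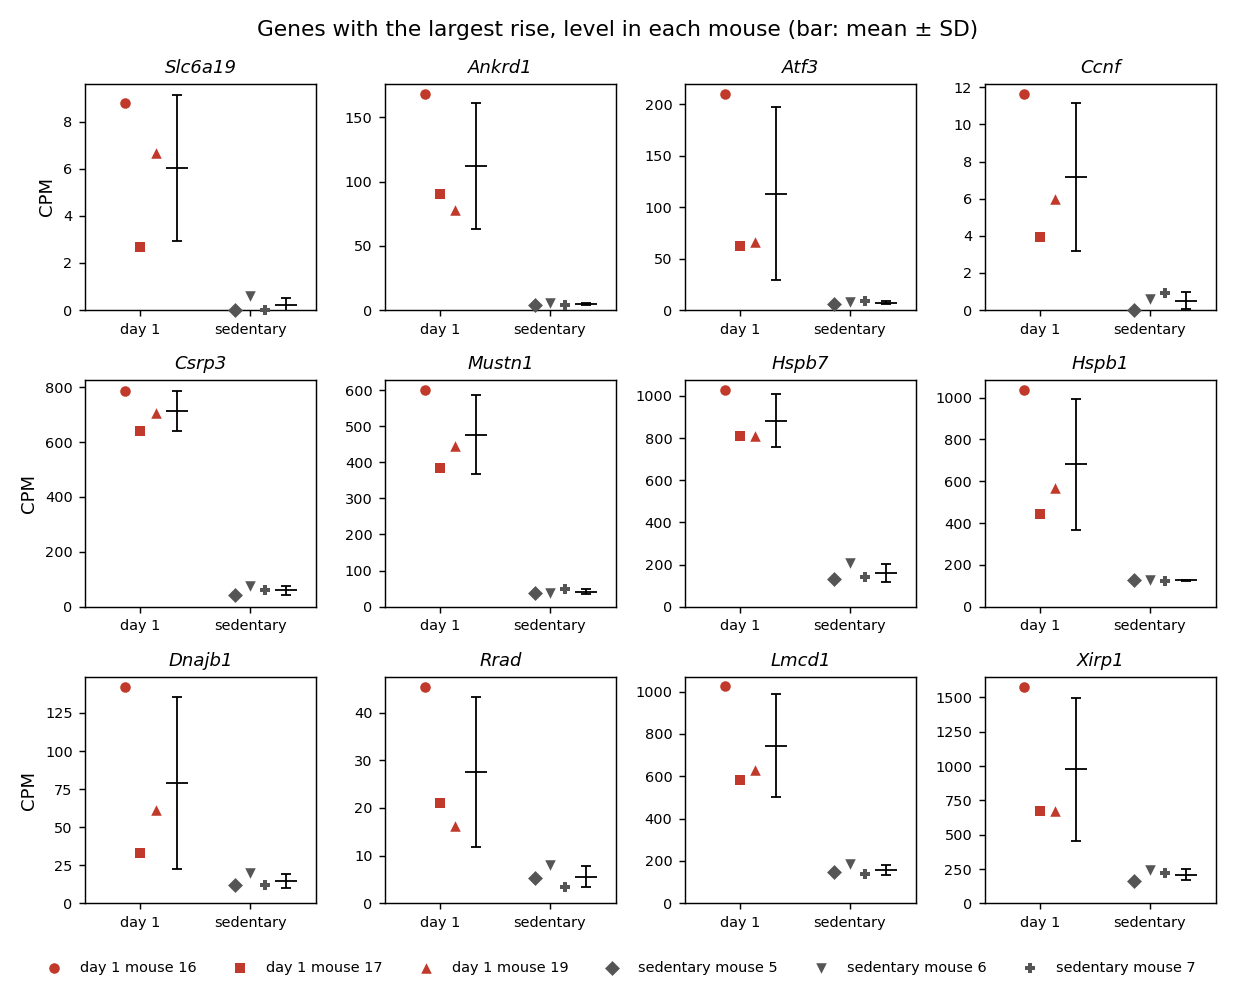
Level (CPM, each axis from 0) in each mouse for the 12 risen genes of largest fold that the text gives in full, day 1 on the left and sedentary on the right of each panel, with mean ± SD (n = 3) beside the points. Every day 1 point is above every sedentary point, and mouse 16 (circles) is the highest day 1 mouse in all 12 panels.

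Muscle proteins outside the Z-disc list and growth signals were also among the 57. Klhl40, a Kelch protein that stabilises nebulin and leiomodin on thin filaments, was at 903, 477 and 651 CPM at day 1 against 180, 180 and 158 CPM at rest (1.99 ± 0.17, adjusted p = 2.16e-06). Its relatives Klhl41 (1.00 ± 0.13) and Klhl30 (0.84 ± 0.14) rose by less, the second of them losing its call without mouse 5 (adjusted p = 0.0555). Mybph, a thick-filament protein of the myosin-binding protein C family that appears in growing and remodelling muscle, was at 219, 192 and 266 CPM against 100, 77.8 and 83.0 CPM (1.39 ± 0.17, adjusted p = 0.000239). It was the 1 risen gene of 15 myogenic and developmental genes tested, of which 12 were higher with a median of 0.25. The embryonic myosin Myh3 was at 1.00 ± 0.577 CPM against 1.21 ± 0.808 CPM (SD, n = 3 each) (adjusted p = 0.973). Pdlim3, an actinin-bound PDZ-LIM protein, rose by a log2 fold of 1.02 ± 0.11 (adjusted p = 3.16e-05), and the actin assembly factor Enah by 1.90 ± 0.30 (adjusted p = 0.00291).

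Tnfrsf12a, the receptor of the cytokine TWEAK on muscle cells, had 170, 78.7 and 78.9 CPM at day 1 against 29.8, 34.8 and 29.5 CPM at rest (1.81 ± 0.24, adjusted p = 0.000436). The growth factor Fgf1 was at 38.1 ± 4.12 CPM against 19.0 ± 1.79 CPM (1.02 ± 0.18, adjusted p = 0.00907), and Hbegf, a ligand of the EGF receptor, at 43.4 ± 22.7 CPM against 17.6 ± 2.69 CPM (1.32 ± 0.29, adjusted p = 0.0495; SD, n = 3 each). The first of these calls held without any 1 library. That of Fgf1 was lost without mouse 16, 5 or 7 (adjusted p = 0.0509 to 0.0685) and that of Hbegf without any mouse but 17 (0.059 to 0.324). The transferrin receptor Tfrc, through which fibres take up iron, was at 206, 179 and 215 CPM against 128, 114 and 118 CPM (0.75 ± 0.13, adjusted p = 0.00974). Glul, glutamine synthetase, was at 113, 105 and 97.5 CPM against 57.4, 67.3 and 72.7 CPM (0.70 ± 0.12, adjusted p = 0.00724). Glul lost its call without mouse 5 (adjusted p = 0.0664) and Tfrc without mouse 19, 6 or 7 (0.0584 to 0.0773). Dysf, the membrane repair protein dysferlin, rose by 0.63 ± 0.14 (adjusted p = 0.0456), a call lost without any 1 of the 6 mice (0.0905 to 0.188) and after removal of a length and GC trend.

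Other risen genes were of a few kinds. Cytoskeletal and membrane genes were the tubulin Tubb6 (1.65 ± 0.27), the endocytic gene Ehd4 (1.46 ± 0.24), Popdc2 (0.86 ± 0.16), the myosin light chain Myl12a (0.79 ± 0.15), the actin-disassembly factor Wdr1 (0.74 ± 0.14), Myo18b (0.62 ± 0.09) and Pacsin3 (0.44 ± 0.09). Genes of protein turnover and translation were the ubiquitin ligase Rnf115 (1.19 ± 0.16), the deubiquitinase Usp28 (0.97 ± 0.17), the kinase Mknk2 of the initiation factor eIF4E (0.74 ± 0.15), the synthetase scaffold Aimp2 (0.64 ± 0.14) and the proteasome subunit Psmd11 (0.61 ± 0.10). The remainder were Rgcc (1.34 ± 0.19), Sbno2 (1.09 ± 0.23), Tmem43 (0.80 ± 0.17), Lrrc2 (0.67 ± 0.13), Arl6ip5 (0.65 ± 0.13) and the glycogen branching enzyme Gbe1 (0.53 ± 0.11). A further 3 risen genes carry only provisional names and are counted but not described. Of the genes in this paragraph, Ehd4, Myo18b, Rnf115 and Rgcc were called whichever library was left out. Tubb6 lost its call only without mouse 7 (adjusted p = 0.0542). Psmd11 lost it without mouse 16 or 5 (0.0588 and 0.0664), and the others lost it in 3 to 6 of the 6 fits.

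The fallen genes included regulators specific to muscle and secreted factors. Igfbp5 (chr1:72857932-72874884, minus strand), a secreted binding protein of insulin-like growth factors, was at 184, 180 and 216 CPM at day 1 against 287, 325 and 360 CPM at rest (-0.72 ± 0.10, adjusted p = 0.00125). Ppp1r27, a regulatory subunit of protein phosphatase 1, was at 181, 177 and 147 CPM against 267, 334 and 288 CPM (-0.79 ± 0.11, adjusted p = 0.000984). These and Ankrd23 were the 3 falls called whichever library was left out. Car3, carbonic anhydrase III of muscle and fat, was at 1262, 1188 and 1058 CPM against 2066, 1764 and 1776 CPM (-0.66 ± 0.12, adjusted p = 0.00779), a call lost without day 1 mouse 19 (0.0519) or sedentary mouse 5 (0.0664). Sdc4, a heparan sulfate proteoglycan of the cell surface, was at 50.4, 53.4 and 45.1 CPM against 76.4, 94.1 and 75.0 CPM (-0.70 ± 0.13, adjusted p = 0.0111), a call lost without mouse 16, 19 or 6 (0.062 to 0.0931). The day 1 mice were close to each other in all 4 genes and none reached the sedentary range.

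Asb10, a substrate receptor of a ubiquitin ligase, was at 160, 133 and 164 CPM at day 1 against 234 CPM in each sedentary mouse (-0.60 ± 0.11, adjusted p = 0.00855). Cpeb1, which controls translation through the poly(A) tail, was at 44.9, 51.3 and 54.1 CPM against 92.5, 80.2 and 92.1 CPM (-0.80 ± 0.14, adjusted p = 0.00698). Without 1 mouse these calls narrowly missed the threshold, Asb10 without mouse 7 (adjusted p = 0.0509) and Cpeb1 without mouse 16 (0.0588). Iqsec1, an exchange factor of ARF GTPases, was at 31.7, 30.2 and 32.5 CPM against 76.7, 55.8 and 48.7 CPM (-0.92 ± 0.18, adjusted p = 0.0207), with sedentary mouse 5 the highest. Klhl23, a Kelch protein, was at 12.5, 14.6 and 15.2 CPM against 23.9, 31.6 and 28.9 CPM (-0.98 ± 0.21, adjusted p = 0.0404). Aurka, the mitotic kinase Aurora A, was at 6.66, 6.62 and 7.65 CPM against 12.5, 18.3 and 19.6 CPM (-1.25 ± 0.27, adjusted p = 0.049). The groups did not overlap, yet Klhl23 lost its call without any 1 of the 6 mice (0.0651 to 0.228), Aurka without any mouse but 5 (0.0966 to 0.235) and Iqsec1 without mouse 16, 17, 19 or 5 (0.0562 to 0.149).

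H60b, a ligand of the natural killer receptor NKG2D, was at 4.85, 7.43 and 5.56 CPM at day 1 against 14.0, 17.4 and 13.0 CPM at rest (-1.29 ± 0.25, adjusted p = 0.0215). H60b overlaps the transcript Gm26581 on the same strand (-1.24, adjusted p = 0.688) and other tested transcripts on the other strand. How reads matching several genes were counted is not given. The antisense transcript Foxo6os was at 16.4, 16.1 and 19.2 CPM against 29.4, 32.2 and 43.7 CPM (-1.01 ± 0.20, adjusted p = 0.0231). H60b lost its call without any mouse but 17 (0.0509 to 0.155) and Foxo6os without mouse 16, 17 or 7 (0.111 to 0.185). Smaller falls were those of tropomyosin Tpm2 (-0.25 ± 0.05), Lrrc30 (-0.46 ± 0.10) and Asb14 (-0.47 ± 0.10), each of which lost its call in 5 of the 6 fits that left out 1 library. The remaining fallen gene has a provisional name.

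**Figure D3:**
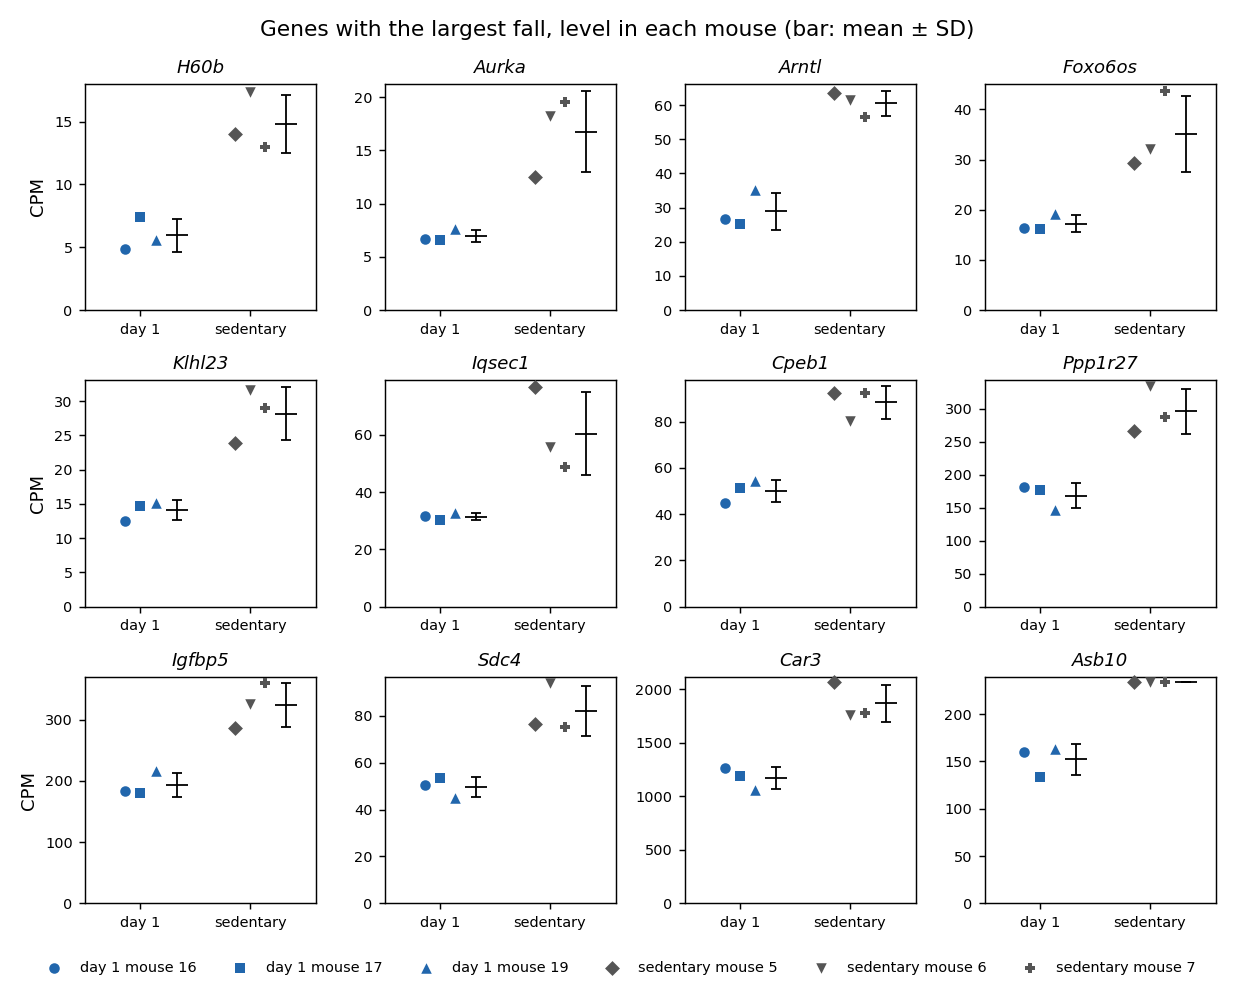
Level (CPM, each axis from 0) in each mouse for the 12 fallen genes given in full, day 1 on the left and sedentary on the right of each panel, with mean ± SD (n = 3) beside the points. Every day 1 point is below every sedentary point, and the day 1 mice lie closer together than in the risen genes.

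The clock gene Arntl (chr7:113207465-113314126, plus strand) encodes BMAL1, the activator that drives the Per and Cry genes. It was at 26.6, 25.1 and 35.2 CPM at day 1 against 63.7, 61.6 and 56.6 CPM at rest (-1.05 ± 0.22, adjusted p = 0.0356). Its call was lost without any mouse but 19 (adjusted p = 0.107 to 0.219). Of 19 clock genes tested it was the 1 that fell, 0 rose, 13 were higher, and the median was 0.24. The repressor gene Per2 was at 15.2, 6.73 and 11.7 CPM against 4.20, 3.04 and 2.21 CPM (1.85 ± 0.45, adjusted p = 0.093), with the groups apart and the threshold missed. Per1 was at 19.6, 28.1 and 39.1 CPM against 5.6, 17.8 and 10.4 CPM (1.39, adjusted p = 0.17). The labels used here give no time of day for dissection, and its part in these values was not tested. Per1 and Sgk1 had the smallest p of 15 glucocorticoid targets, of which 8 were higher and 0 were called, with a median of 0.07. Sgk1 was at 131, 94.0 and 163 CPM against 201, 173 and 185 CPM (-0.51, adjusted p = 0.172).

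Fuel and mitochondrial genes showed few called changes. Lpl, the lipoprotein lipase that frees fatty acids for the fibre, was at 432, 388 and 429 CPM at day 1 against 645, 609 and 559 CPM at rest (-0.52 ± 0.09, adjusted p = 0.00779), a call lost without mouse 5 (0.0689). It was the 1 fallen gene of 31 in fatty acid uptake and oxidation, of which 24 were lower with a median of -0.08. The cytochrome oxidase subunit mt-Co1 was at 12928, 13414 and 12225 CPM against 15283, 15418 and 15267 CPM (-0.23 ± 0.05, adjusted p = 0.0215). The fall was small, the groups were apart, and the call was lost without any mouse but 17 (0.0652 to 0.11). It was the 1 fallen gene of 13 mitochondrially encoded mRNAs, of which 8 were lower with a median of -0.08. Of 36 nuclear complex I genes 26 were lower, the median was -0.04 and 0 were called. Those with the smallest p were Ndufb10 (0.22, adjusted p = 0.329) and Ndufb3 (-0.16, adjusted p = 0.752).

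Ppargc1a, the coactivator of mitochondrial genes whose mRNA is known to rise in the first hours after exercise, was at 56.4, 53.0 and 38.0 CPM at day 1 against 65.9, 49.1 and 36.5 CPM at rest (-0.02 ± 0.19, adjusted p = 0.994). The groups overlapped throughout. Of 15 PGC-1 coactivators and partner factors 4 were higher and 0 were called, with a median of -0.06. Those of smallest p were Sirt1 (1.40 ± 0.80, adjusted p = 0.728) and Ppard (0.59 ± 0.43, adjusted p = 0.843). Of 28 glycolysis and glycogen genes 18 were higher with a median of 0.04, and Gbe1 rose, at 110, 112 and 98.9 CPM against 71.4, 70.9 and 83.2 CPM (adjusted p = 0.0256). That call was lost without mouse 16, 17, 5 or 6 (0.111 to 0.154). Of 22 antioxidant genes and metallothioneins 15 were higher with a median of 0.08 and 0 were called, Gpx3 (-0.42, adjusted p = 0.205) and Prdx6 (0.37, adjusted p = 0.22) having the smallest p.

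Contractile isoforms, protein turnover and ribosome production showed little. Of 14 fast fibre genes 6 were higher with a median of -0.01 and 0 were called, Myl1 at 11529 ± 528 CPM against 13275 ± 203 CPM (-0.18, adjusted p = 0.186) and Myh2 at 1694 ± 101 CPM against 1374 ± 273 CPM (0.32, adjusted p = 0.459; SD, n = 3 each). Of 12 slow fibre genes 4 were higher with a median of -0.34 and 0 were called, Tpm3 (-0.55, adjusted p = 0.277) and Atp2a2 (-0.70, adjusted p = 0.401) having the smallest p. Of 16 atrophy and growth-brake genes 8 were higher with a median of 0.01 and 0 were called, among them Sqstm1, the autophagy adaptor p62 (0.24, adjusted p = 0.267), and Mstn, myostatin (0.38, adjusted p = 0.331). Of 31 proteasome subunits 28 were higher, but the median was 0.08 and only Psmd11 rose, at 222, 197 and 171 CPM against 122, 130 and 140 CPM (adjusted p = 0.00724). Of 23 ribosome biogenesis genes 17 were higher with a median of 0.09 and 0 were called, Ddx21 (0.76, adjusted p = 0.199) and Rrs1 (-0.60, adjusted p = 0.475) having the smallest p.

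Of the MHC and interferon lists, 0 genes were called. All 7 MHC class II genes were lower with a median of -0.33, H2-Ab1 at 33.2, 39.1 and 25.7 CPM at day 1 against 56.4, 50.7 and 42.6 CPM at rest (-0.59, adjusted p = 0.343) and H2-Eb1 at 14.3, 13.2 and 11.4 CPM against 29.5, 21.6 and 16.0 CPM (-0.76, adjusted p = 0.373). In both genes all 3 day 1 mice were below all 3 sedentary mice, as 1008 of all genes tested were. Of 15 MHC class I and peptide loading genes 13 were lower with a median of -0.25, H2-D1 (-0.35, adjusted p = 0.436) and B2m (-0.32, adjusted p = 0.475) having the smallest p. Among 19 genes induced by interferon gamma, 13 were lower and the median was -0.39. The guanylate-binding protein gene Gbp7 was at 13.7 ± 2.76 CPM against 22.6 ± 1.12 CPM (-0.70, adjusted p = 0.205) and the GTPase gene Irgm2 at 8.69 ± 2.64 CPM against 17.7 ± 5.39 CPM (-1.01, adjusted p = 0.234; SD, n = 3 each). Of 21 type I interferon genes 16 were lower with a median of -0.33, Oas2 (-1.23, adjusted p = 0.527) and Usp18 (-1.07, adjusted p = 0.569) having the smallest p.

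Ifng itself had 0 counts in all 3 day 1 libraries and 1, 1 and 0 counts in the sedentary ones. Foxp3, the factor that defines regulatory T cells, had 2, 0 and 1 counts at day 1 against 0, 3 and 2 counts at rest. Neither gene passed the filter on low counts. The limit that a count of 0 allows, 3 counts, lay between 0.338 and 0.417 CPM in the day 1 libraries and between 0.389 and 0.435 CPM in the sedentary ones, for counting error alone. At this depth no difference in either gene was detectable. Of 13 cytokines and chemokines tested 8 were higher with a median of 0.20 and 0 were called. The monocyte attractant Ccl2 was at 10.8, 2.44 and 5.84 CPM against 1.54, 2.03 and 0 CPM (2.44 ± 0.81, adjusted p = 0.312), and Cxcl12 at 106 ± 10.6 CPM against 136 ± 5.58 CPM (-0.35, adjusted p = 0.185; SD, n = 3 each).

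Markers of the other cells in whole muscle showed 0 called genes in every list. Of 16 macrophage markers tested 9 were higher with a median of 0.14, and their 18 genes summed to 194 to 277 CPM at day 1 against 161 to 240 CPM at rest, none of them at 0 in a whole group. Cd68 was at 12.9, 15.6 and 6.96 CPM against 5.18, 6.96 and 3.50 CPM (1.20 ± 0.36, adjusted p = 0.205), and Csf1r at 32.1 ± 7.21 CPM against 21.4 ± 6.69 CPM (0.61, adjusted p = 0.384; SD, n = 3 each). Without mouse 16 the macrophage median was -0.10. The macrophage list includes Cx3cr1, which overlaps Xirp1 on the same strand, and its log2 fold change was 1.28 (adjusted p = 0.936) at levels of 0 to 1.69 CPM. Of 11 neutrophil markers 4 were tested, all higher with a median of 1.92. S100a8 led them at 0.113, 3.48 and 1.39 CPM against 0.420, 0 and 0.130 CPM, with the groups overlapping (adjusted p = 0.604). The other neutrophil markers did not pass the filter on low counts. A marker as low at rest as S100a8 could pass that filter only through exercised libraries. The shared direction and the median of these 4 are therefore partly built in, and no conclusion is drawn from them. The neutrophil list summed to 7.33 to 14.0 CPM against 1.30 to 6.86 CPM, with Csf3r and Ly6g at 0 in every day 1 library and Cxcr2, Retnlg, Mmp8, Camp and Ly6g at 0 in every sedentary library. T and NK cell markers summed to 4.18 to 5.64 CPM against 5.97 to 6.96 CPM, with 7 of 16 genes at 0 in all day 1 libraries, Cd4 and Cd8a among them, and 8 of 16 at 0 in all sedentary ones, Cd8a among them. Of these, 2 were tested and both were lower (median -0.39, smallest adjusted p = 0.799). The part of immune cells in the rises was not tested.

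Stromal and vascular markers were mostly lower by small amounts. Fibro-adipogenic progenitors produce matrix. Of their 12 markers, 11 were lower with a median of -0.18, and the list summed to 2026 to 2255 CPM at day 1 against 2060 to 2806 CPM at rest. Of 10 endothelial markers 8 were lower with a median of -0.15 (317 to 372 CPM against 344 to 414 CPM in sum), and of 14 angiogenic genes 11 were lower with a median of -0.33, Kdr, the VEGF receptor, at 44.3 ± 5.72 CPM against 56.3 ± 2.35 CPM (adjusted p = 0.604) and Nos3 at 8.16 ± 2.35 CPM against 12.2 ± 2.52 CPM (adjusted p = 0.615; SD, n = 3 each). Of 9 tendon markers 8 were lower with a median of -0.33, and of 8 Schwann cell markers 6 were lower with a median of -0.28. Pericyte and smooth muscle markers had a median of -0.06 over 7 genes, with Acta2 at -0.57 (adjusted p = 0.074). Satellite cell markers had a median of -0.15 over 6 genes, adipocyte markers -0.12 over 7, fibre markers -0.02 over 8, and erythroid markers 0.19 over 5. The only B cell marker tested, Ighm, was at 0.25 (adjusted p = 0.607). Of 30 extracellular matrix genes 18 were lower, with a median of -0.11 that turned to 0.03 without mouse 5, and 0 were called. Ccn1, a matricellular target of stretch signalling, was at 104, 40.9 and 49.2 CPM at day 1 against 19.5, 33.2 and 29.5 CPM at rest (1.26 ± 0.28, adjusted p = 0.0543), with the groups apart. The protease inhibitor Timp1 was at 5.17 ± 1.09 CPM against 1.81 ± 0.476 CPM (1.53, adjusted p = 0.265; SD, n = 3 each).

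**Figure D4:**
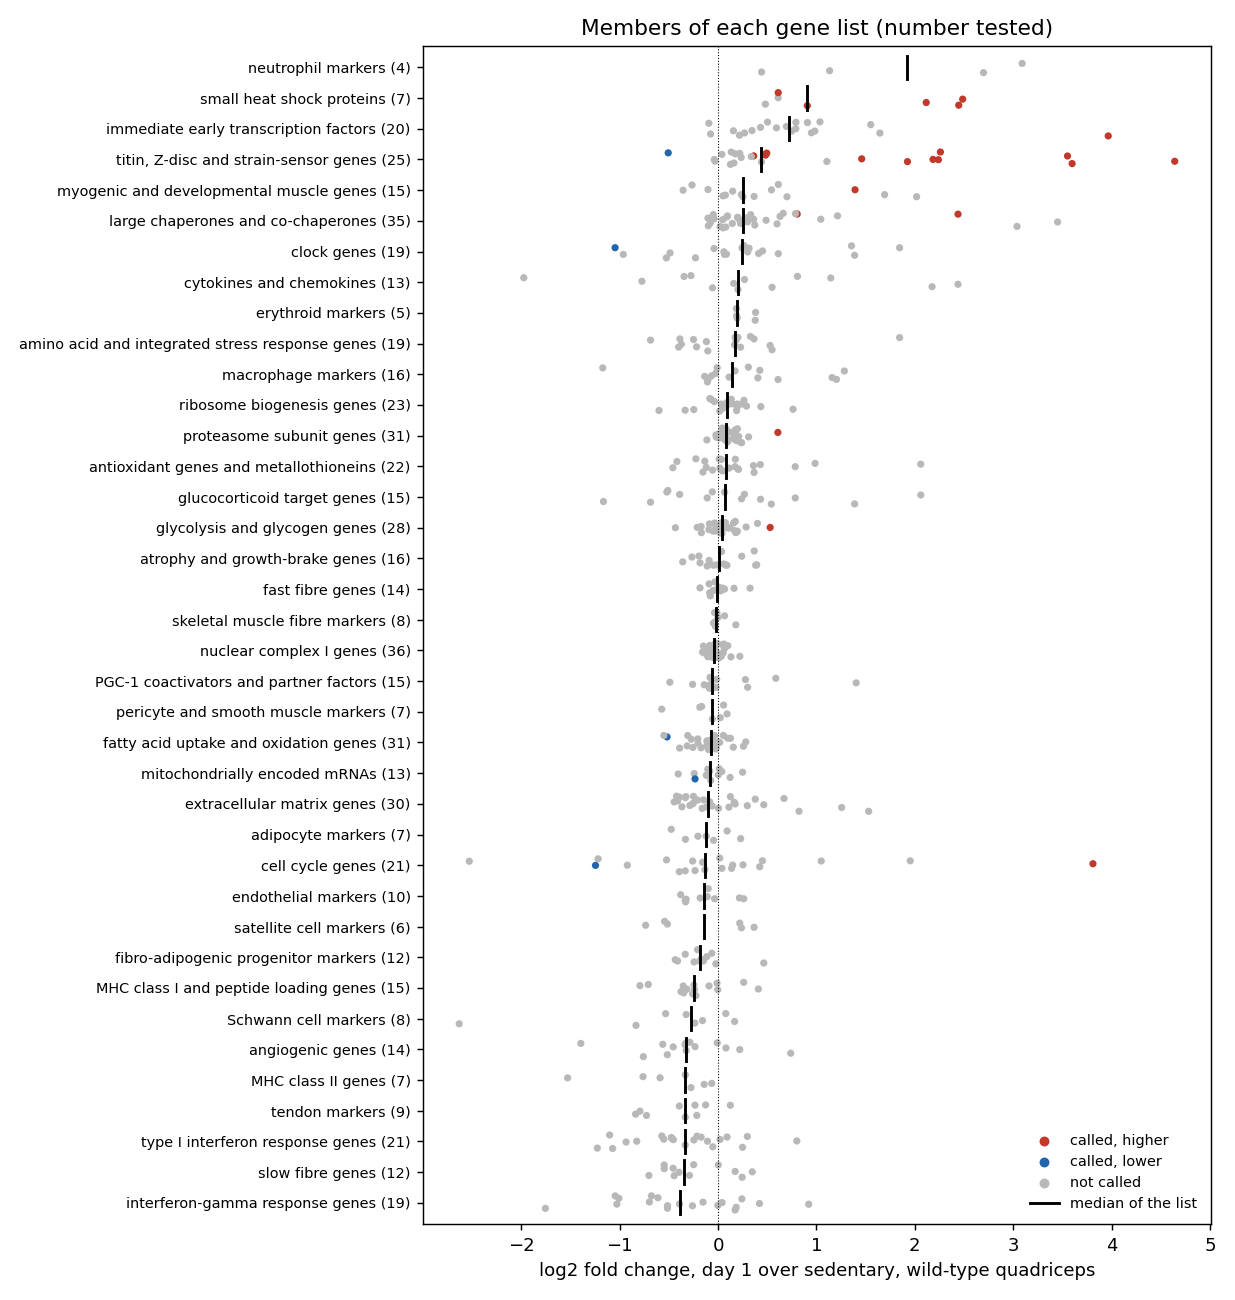
For each gene list (rows, number of genes tested in brackets), points give the log2 fold change, day 1 over sedentary, of every tested member, with called members coloured and the list's median as a bar. The small heat shock proteins (median 0.91), the immediate early factors (0.72) and the titin, Z-disc and strain genes (0.44) lie to the right of 0, and the metabolic and mitochondrial lists lie within 0.1 of it.

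The rises at day 1 were then set beside days 2 and 7 of recovery in other mice of the same strain. The comparisons with sedentary mice share the 3 sedentary libraries, so levels are given side by side. Ankrd1 averaged 112 ± 48.9 CPM at day 1, 61.6 ± 18.2 CPM at day 2 and 19.7 ± 8.28 CPM at day 7, with 4.53 ± 0.992 CPM at rest (SD, n = 3 each). Csrp3 averaged 712, 423 and 159 CPM at days 1, 2 and 7, with 59.7 CPM at rest, and Atf3 113, 37.9 and 16.4 CPM, with 7.23 CPM at rest. Some genes were as high at day 2 as at day 1. Mustn1 averaged 477, 471 and 157 CPM at days 1, 2 and 7 (41.0 CPM at rest), Fhl1 1972, 2121 and 1518 CPM (727 CPM at rest) and Hspb6 1527, 1653 and 1543 CPM (1013 CPM at rest). Dnajb1 averaged 78.9, 15.2 and 10.0 CPM (14.7 CPM at rest), so it was near its resting level by day 2. Of the falls, Arntl averaged 29.0, 30.5 and 43.7 CPM (60.6 CPM at rest) and Car3 1169, 1220 and 1223 CPM (1869 CPM at rest).

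Against day 2, 14 genes differed at day 1 (0.107% of genes tested), 10 higher and 4 lower. The 6 higher genes of smallest p were Ankrd2 (1.14 ± 0.16), Klhl40 (1.11 ± 0.16) and Flnc (1.10 ± 0.16), each at adjusted p = 0.00688, and Lrrc2 (0.83 ± 0.13, adjusted p = 0.0225), Lmcd1 (1.12 ± 0.19, 0.0249) and Dnajb1 (2.35 ± 0.41, 0.0288). Ankrd2 was at 622, 459 and 433 CPM at day 1 and at 211, 289 and 185 CPM at day 2. The lower ones were Ankrd23 (-0.53 ± 0.06, adjusted p = 0.00306), Nmrk2, which phosphorylates nicotinamide riboside on the way to NAD (-1.65 ± 0.24, 0.00688), Sgk1 (-0.84 ± 0.14, 0.0278) and the phosphatase gene Ppm1f (-1.24 ± 0.22, 0.0288). Nmrk2 was at 358, 121 and 302 CPM at day 1 and at 710, 917 and 817 CPM at day 2, with the groups well apart and mouse 17 the lowest. This count was fragile. It was 1 without day 2 mouse 15, 6 without day 1 mouse 16, and 0 when the fit held no other group, while DESeq2 on all 12 libraries called 48.

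Against day 7, 55 genes differed at day 1 (0.421% of genes tested), 33 higher and 22 lower. The 6 higher genes of smallest p were Cryab (1.54 ± 0.13, adjusted p = 2.27e-05), Ankrd2 (1.73 ± 0.17), Klhl40 (1.71 ± 0.16), Flnc (1.68 ± 0.16), Csrp3 (2.16 ± 0.24) and Lmcd1 (1.56 ± 0.19, adjusted p = 0.000275). Among lower genes with established symbols, the 6 of smallest p were Myh3 (-5.17 ± 0.60, adjusted p = 0.000182), Nmrk2 (-1.83 ± 0.24), Ppp1r27 (-0.82 ± 0.11), Tpm2 (-0.38 ± 0.05), the matrix gene Cilp (-1.75 ± 0.25) and the imprinted transcript H19 (-1.35 ± 0.20, adjusted p = 0.00223). Myh3, embryonic myosin, was at 0.339, 1.28 and 1.39 CPM at day 1 and at 12, 42.1 and 54.7 CPM at day 7. It marks newly forming fibres, and all 3 mice of day 7 were above all 3 of day 1. The count was 33 without day 7 mouse 9 and 34 without day 7 mouse 10.

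The tibialis anterior of the same numbered mice gave a different picture at day 1. In that muscle 7 of 12692 genes were called (0.0552%), 1 higher and 6 lower, with 1034 at an unadjusted p under 0.05. The 1 higher gene belonged to the titin, Z-disc and strain list, whose median log2 fold change there was 0.10. Among the lower genes, 1 was of the MHC class II list (median -0.92) and 1 of the extracellular matrix list (median -0.46). A test of the difference between the 2 responses, in a fit of all 24 wild-type libraries, called 6 of 13819 genes (0.0434%), with 758 at an unadjusted p under 0.05. All 6 responses were larger in the quadriceps. They were those of Ankrd2 (difference of log2 fold changes 2.40 ± 0.28, adjusted p = 8.51e-05), Fhl1 (1.70 ± 0.21, 0.000134), Lmcd1 (2.42 ± 0.33, 0.000554), Csrp3 (3.34 ± 0.56, 0.0085), Hspb6 (0.63 ± 0.10, 0.0085) and Cryab (1.55 ± 0.29, 0.0288). In tibialis anterior, Ankrd2 was at 70.6, 105 and 60.1 CPM in day 1 mice 16, 17 and 19, against 118, 84.5 and 78.1 CPM in sedentary mice 5, 6 and 7. Fhl1 there was at 1437, 1796 and 1257 CPM against 1988, 1909 and 1562 CPM. The groups overlapped in both genes in this muscle, where they were apart in the quadriceps.

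The 3 day 1 mice were not alike in the tibialis anterior. Csrp3 was at 49.0, 207 and 43.8 CPM in mice 16, 17 and 19, against 123, 64.1 and 69.0 CPM in the sedentary mice, and Ankrd1 at 7.52, 68.9 and 10.4 CPM against 10.9, 10.7 and 14.4 CPM. Atf3 was at 3.12, 59.8 and 6.17 CPM against 2.43, 0.989 and 3.54 CPM. In each of these genes mouse 17 stood alone above the others. Of the 57 genes that rose in the quadriceps, mouse 17 had the highest tibialis anterior level of the 3 in 47 and exceeded every sedentary tibialis anterior in 47, against 22 for mouse 16 and 17 for mouse 19. Mouse 16 was below every sedentary tibialis anterior in 19 of the 57, mouse 17 in 1 and mouse 19 in 23. The matching shares over all genes tested were not counted. The median difference of the 57 genes from the sedentary mean in tibialis anterior was 0, 0.55 and -0.07 (log2) in mice 16, 17 and 19, and in the quadriceps it was 1.32, 0.90 and 0.86. With the tibialis anterior of mouse 17 left out, 24 responses differed between the muscles, all larger in the quadriceps, and 23 of these genes were among the 57 (the other was Sqstm1). The count was 3 without the quadriceps of sedentary mouse 5 or 7 or the tibialis anterior of sedentary mouse 5. The 57 genes were selected in the same quadriceps libraries that enter these medians and this test. Their larger quadriceps values, and the share of 23 of 24, are therefore partly built in.

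Of the 19 genes that fell in the quadriceps, 3 also fell in tibialis anterior, where 6 of 12692 genes tested fell. Arntl fell in tibialis anterior to 19.6, 29.9 and 24.8 CPM at day 1, against 68.5, 54.7 and 49.0 CPM at rest (-1.17 ± 0.18, adjusted p = 0.0283), beside -1.05 in the quadriceps. Ppp1r27 fell to 99.9, 86.7 and 80.7 CPM against 197, 175 and 181 CPM (-1.01 ± 0.12, adjusted p = 0.00121), beside -0.79 in the quadriceps, and Car3 fell by 0.53 ± 0.09 on the log2 scale (adjusted p = 0.0477), beside -0.66 in the quadriceps. In all 3 genes every day 1 mouse was below every sedentary mouse in both muscles. The difference between the muscles was tested for all genes, and none of the 19 fallen genes passed.

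**Figure D5:**
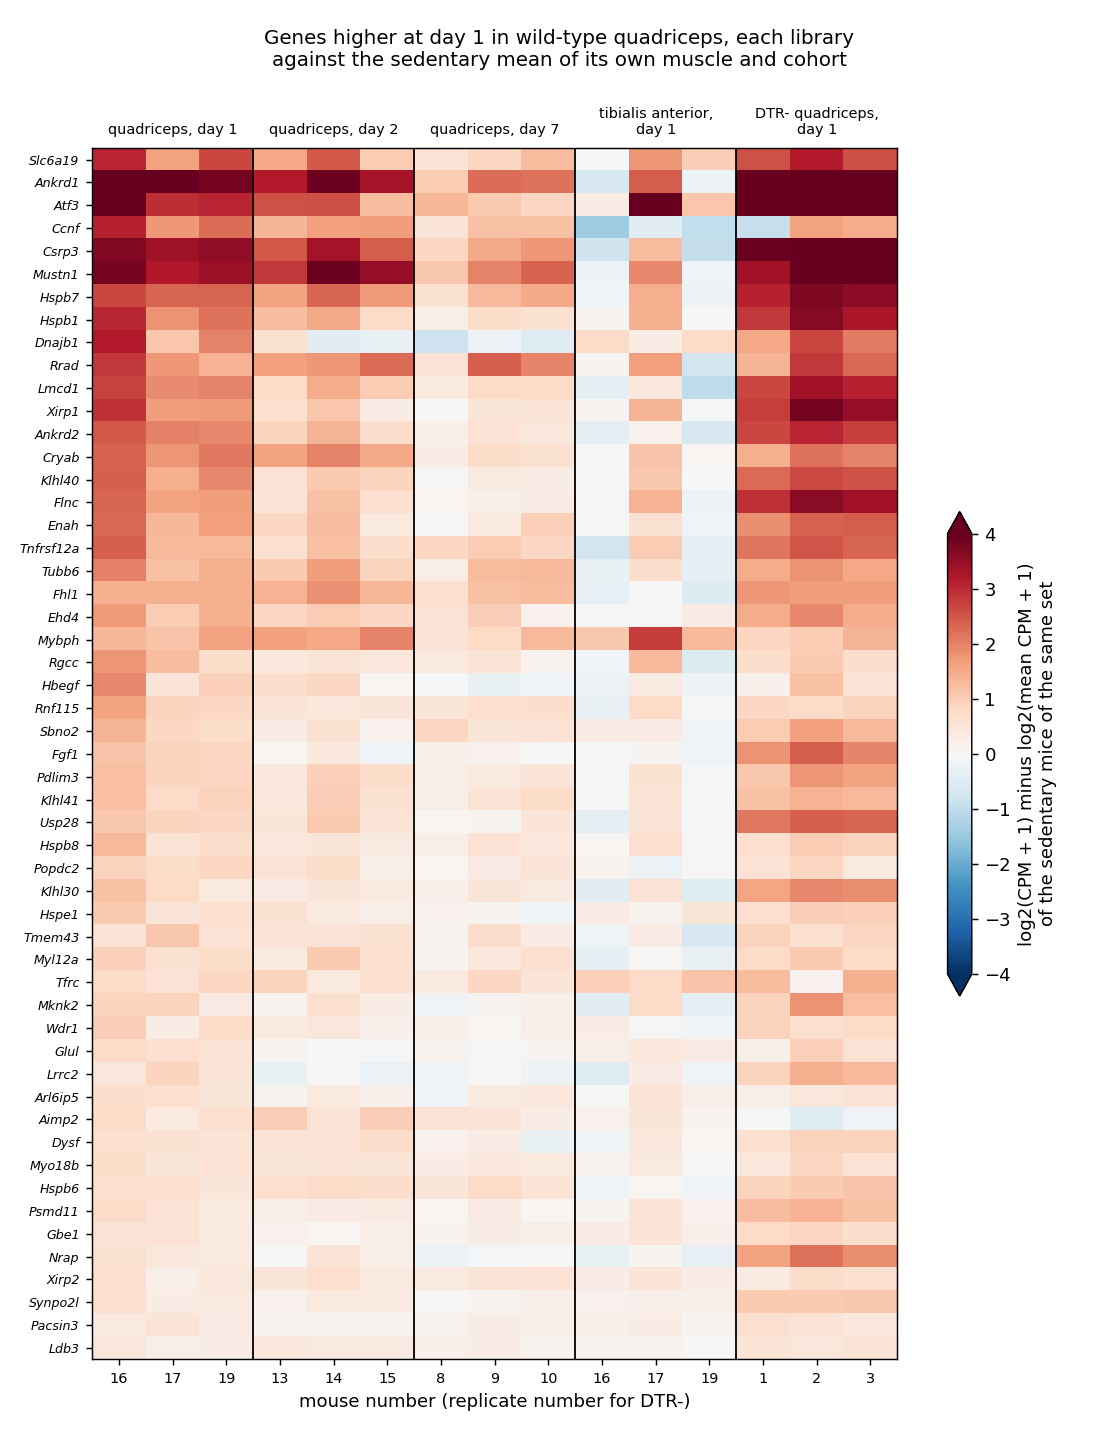
Log2 level of the risen genes that the text names (down the page) relative to the mean of the sedentary libraries of the same muscle and experiment, with 1 CPM added to both. Each column is a library, from wild-type quadriceps at days 1, 2 and 7, wild-type tibialis anterior at day 1 and Foxp3DTR- quadriceps at day 1. The colour scale ends at a log2 difference of 4 on either side. Day 1 quadriceps columns are red for nearly all genes, whereas in tibialis anterior the column of mouse 17 is redder than those of mice 16 and 19.

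Quadriceps of Foxp3DTR- mice, which share no library with the wild-type comparison, gave the same contrast in other animals. In that experiment 1163 of 14245 genes rose at day 1 (8.16%) and 1174 fell (8.24%), with an all-gene median log2 fold change of 0.09. These counts are read with caution, since the Foxp3DTR- day 1 libraries stand apart in genes detected. They held 21211 to 26596 detected genes, 5.44 to 6.56% mitochondrial counts and 9829545 to 14445336 counts in total. The sedentary libraries held 16508 to 16799 detected genes, 7.89 to 12% mitochondrial counts and 8092740 to 9558470 counts in total. Detected genes numbered 16843 to 18494 in Foxp3DTR- quadriceps at day 7 and 17373 to 20893 over all wild-type quadriceps libraries. Beyond the removal of a trend on transcript length and GC content, the part of the day 1 and sedentary difference in the calls was not tested. The rises numbered 630 and 646 without day 1 mouse 3 or 2 and 666 and 762 without sedentary mouse 1 or 2, and the falls 700, 762 and 684 without day 1 mouse 3, day 1 mouse 2 or sedentary mouse 1. Of the 57 genes that rose in wild-type mice, 56 were higher in Foxp3DTR- mice at day 1, where 53.9% of all genes were higher. Of the 57, 41 rose, which is 71.9% of the wild-type list against a background of 8.16% of all genes tested. These 41 are 3.53% of the Foxp3DTR- list. The median over the 57 was 1.10. With the trend removed, 41 rose again, against a background of 5.92%, and 31 to 46 did so over all alternatives. The strain and small heat shock lists were higher there too (medians 0.68 and 0.78), but other lists were unlike those of wild-type mice. Of 36 nuclear complex I genes 35 fell (median -0.73, wild type -0.04), and of 13 mitochondrially encoded mRNAs 8 fell (-0.91, wild type -0.08). Of 14 fast fibre genes 7 fell and 1 rose (-0.34, wild type -0.01).

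Ankrd1 was at 135, 230 and 170 CPM in the Foxp3DTR- mice at day 1 against 6.97, 7.01 and 4.45 CPM at rest (4.59 ± 0.38, adjusted p = 1.58e-07). Csrp3 was at 725, 1122 and 786 CPM against 39.9, 36.0 and 62.9 CPM (4.0 ± 0.26, adjusted p = 6.16e-09), and Hspb1 at 489, 863 and 649 CPM against 63.8, 70.0 and 70.3 CPM (3.04 ± 0.28, adjusted p = 1.27e-06). In all 3 genes every day 1 mouse was above every sedentary mouse. Of the 19 fallen genes 15 were lower in Foxp3DTR- mice, where 46.1% of all genes were lower. Of the 19, 7 fell, which is 36.8% of the wild-type list against a background of 8.24% of all genes tested. These 7 are 0.596% of the Foxp3DTR- list. The median over the 19 was -0.30, and 6 to 9 of them fell over all alternatives. Ppp1r27 fell to 192, 172 and 151 CPM against 449, 306 and 286 CPM (-1.27 ± 0.18, adjusted p = 0.000151), and Arntl to 26.1, 34.3 and 28.1 CPM against 39.6, 43.4 and 43.9 CPM (-0.77 ± 0.19, adjusted p = 0.0084). Ankrd23 was at 866, 681 and 738 CPM against 756, 694 and 816 CPM, with the groups overlapping (-0.24, adjusted p = 0.359).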

How the data were processed

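The deposited table holds raw counts of 55011 genes in 61 libraries, 1 column per library. Per the labels' protocols, the authors homogenised frozen muscle in TRIzol and took 2 ng of RNA into each library, following the ultra-low-input method of the Immunological Genome Project. Per the submitters' processing notes, reads were aligned to mm10 with STAR 2.7.3a and counted with featureCounts. The annotation, the use of strand and the treatment of reads matching several genes are not stated in the sources at hand. Of the gene symbols 53009 matched GENCODE vM21, which gave coordinates (GRCm38).

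Counts were fitted with edgeR 4.0.16 in R 4.3.3. The fit held the 12 wild-type quadriceps libraries, scaled by TMM, after filterByExpr by group (minimum count 10, minimum total 15). Quasi-likelihood tests were adjusted by Benjamini-Hochberg over all genes tested and called under 0.05. Every adjusted p comes from edgeR unless DESeq2 is named. The standard error (SE) is the fold change over the square root of F. CPM are counts scaled to a library's total, without the TMM factors that enter the fold changes. The muscles were compared in a fit of 24 wild-type libraries and the Foxp3DTR- mice in a fit of 15 libraries. Alternatives were size factors by RLE, no filter on low counts, a minimum count of 30, DESeq2 1.42.0, robust empirical Bayes, only the groups compared, removal of a trend on transcript length and GC content, each library left out and, where numbers are shared, a replicate block.

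Every called gene could be named, except for a risen gene that is not reported here. The 12 largest rises and 12 largest falls without overlap, and at 5 CPM or more on average in either group, are given by library. Lists are described by counts and medians, with their called members or the 2 of smallest p, and Foxp3, Ifng and Ppargc1a were reported in any case. Other genes (Fos, Ttn, Des, Tcap, Per2, Myh3, Bag3, Hspa1a, Hspa1b, Hspb2, Hspb3, Cx3cr1) were added after their values were seen. The group of libraries, the lists and the tests were chosen with earlier results of these data known. Mouse numbers are shared by the 2 muscles of an animal. Deviations of these 12 pairs from their group means correlated at -0.03 to 0.05 across genes, and those of 3 numbered Foxp3DTR- pairs at 0.01 to 0.03.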

Additional observations from a re-analysis of the deposited data

Results flagged for a closer look

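The day 1 response of 6 genes differed between quadriceps and tibialis anterior by the test of the difference itself. The difference of log2 fold changes, quadriceps minus tibialis anterior, was 2.40 for Ankrd2, 1.70 for Fhl1, 2.42 for Lmcd1, 0.63 for Hspb6, 3.34 for Csrp3 and 1.55 for Cryab. In all 6 genes the tibialis anterior of mouse 17 stood above those of mice 16 and 19. Cryab was at 350, 764 and 365 CPM in day 1 mice 16, 17 and 19, against 395, 330 and 302 CPM in sedentary mice 5, 6 and 7.

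A few falls of the wild-type quadriceps met the opposite direction elsewhere, with the groups apart in CPM in both. The fold changes use TMM scaling and CPM do not, and the 2 scales differ in the Foxp3DTR- comparison. Ankrd23 there averaged 762 CPM at day 1 against 755 CPM at rest, beside a log2 fold change of -0.24. Whether the groups stay apart on the TMM scale was not tested. The differences between wild-type and Foxp3DTR- mice were not tested. Lpl was at 535, 452 and 501 CPM in Foxp3DTR- quadriceps at day 1 against 345, 283 and 350 CPM at rest (log2 0.35, adjusted p = 0.0943). H60b was at 3.79, 7.27 and 4.37 CPM against 1.53, 2.51 and 3.58 CPM there (0.78, adjusted p = 0.302). Iqsec1 had a log2 fold change of 0.15 in Foxp3DTR- quadriceps and 0.20 in wild-type tibialis anterior, where it was at 54.9, 49.8 and 49.7 CPM against 46.8, 48.4 and 42.4 CPM. The difference between the muscles, quadriceps minus tibialis anterior, was -1.12 ± 0.26 SE in Iqsec1 and missed the threshold (adjusted p = 0.204). The unnamed transcript Gm45250 had a log2 fold change of 3.73 in Foxp3DTR- quadriceps (adjusted p = 0.0707), at 1.03, 2.56 and 2.44 CPM against 0, 0 and 0.371 CPM. The Foxp3DTR- sedentary libraries detected fewer genes than those of day 1, and its part in these values was not tested.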

How the results depend on the processing

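All 76 genes kept their direction under every alternative in which they were tested, which for Gm45250 leaves out the minimum count of 30. Of the 57 rises, 53 stayed called under every alternative that kept all libraries. So did the falls, except H60b with only the groups compared (adjusted p = 0.0524) and Gm45250, not tested at the minimum count of 30. With no filter on low counts, 139 genes rose and 58 fell, and with DESeq2 113 and 49. With 1 library left out, 33 to 64 rose and 8 to 15 fell. Against day 2 the count of 14 became 96 with no filter, 48 with DESeq2, 9 with robust empirical Bayes, 0 with only the groups compared (878 genes at an unadjusted p under 0.05 as reported) and 1 to 12 with 1 library left out. Against day 7 the count of 55 became 240 with no filter, 157 with DESeq2 and 33 to 52 with 1 library left out. For the difference between muscles the count of 6 became 51 with no filter, 14 with DESeq2, 3 with robust empirical Bayes and 3 to 24 with 1 library left out. In Foxp3DTR- quadriceps the falls numbered 770 once the length and GC trend was removed. With 1 library left out, 630 to 1004 rose and 684 to 1168 fell there. The causes were not tested.

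No paired analysis was possible for the quadriceps at day 1 because its mice share no number with the sedentary mice. With the animal number as a replicate block 5 responses differed between the muscles, all among the 6. With the replicate block in Foxp3DTR- mice 1035 genes rose and 1043 fell. Same-numbered pairs deviated together weakly at most, at correlations of -0.03 to 0.05 between the muscles and 0.01 to 0.03 in Foxp3DTR- mice. At day 1 those between the muscles were 0.038 to 0.053, against -0.040 to -0.0017 for pairs of different number. Day 7 mouse 9 and sedentary mouse 7 had negative values (-0.0082 and -0.033). Of the genes reported in any case, Ppargc1a crossed 0 with the trend removed (0.00151) and without mouse 19 (0.12) or mouse 5 (0.22), with a range of -0.20 to 0.22 when 1 library was left out. Il2ra, of the T cell list, crossed 0 without mouse 16 (0.48) or mouse 7 (0.19), with a range of -0.65 to 0.48.

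The depth of 6898566 to 8863788 counts limits genes below about 1 CPM, among them Foxp3, Ifng and most T cell and neutrophil markers. With 3 mice a group, calls near the threshold changed with 1 library.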
